A study of Mus musculus with 18 samples.

Results

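Serum response factor (SRF), its coactivator myocardin and the transcription factors that work beside them in muscle were followed at the RNA level in mouse aorta carrying an edited SRF binding site. The genes were chosen by symbol, with earlier results of these data known, and are *Srf*, *Myocd*, *Elk1*, *Elk3*, *Elk4*, *Fhl2*, *Mef2a*, *Mef2c* and *Mef2d*, 9 of the 55453 genes in the count tables. All 9 had enough reads to be tested in both experiments.

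Polyadenylated RNA of whole aortae, each from a single mouse and stripped of the tissue around it, was sequenced in bulk. In the HDR experiment, Cas9, a guide RNA and a single-stranded donor had changed neighbouring bases in the CArG box of the promoter of *Tspan2*, a tetraspanin gene expressed in vascular smooth muscle. In the PE2 experiment, prime editor 2, a Cas9 nickase joined to a reverse transcriptase, had rewritten a single base of the same box from a pegRNA. Homozygous mutants, Tspan2 sg/sg for HDR and Tspan2 peg/peg for PE2, were compared with wild-type mice of the same experiment. The HDR animals are labelled as C57BL/6, were 12 weeks old and comprised 5 wild-type and 5 sg/sg mice, with 3 females and 2 males of each genotype. The PE2 animals are labelled as FVB/N/B6(Cg)-Tyrc-2J/J, were 8 weeks old and comprised 4 wild-type mice, 3 females and 1 male, and 4 female peg/peg mice. The mutants descend from founders bred to C57BL/6J. The edit is in the germline, so every cell of the mutant carries it, and no Cre, transgene or second allele is named for any group. Library depth was 17290992 to 24880385 counts in HDR and 38820265 to 44895615 in PE2. HDR libraries are named here by the numbers in the column names, 2 to 6 for each genotype, which cannot be matched to single labelled animals. Age, strain, depth and editing method all differ between the experiments and cannot be told apart. Because whole aortae were sequenced, fewer cells of a type and less RNA per cell cannot be told apart either.

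SRF is a MADS box protein that binds the CArG box as a dimer and has little activity without a partner. Myocardin, made mainly in cardiac and smooth muscle, converts SRF into a strong activator of contractile genes, whereas the ternary complex factors ELK1, ELK3 and ELK4, ETS proteins phosphorylated by MAP kinases, dock on the same surface of SRF at immediate early genes. FHL2 is a LIM-only cofactor that binds SRF and is itself encoded by an SRF target gene. The MEF2 factors are MADS box relatives of SRF that recognise an A/T-rich site of their own.

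The edited box is shown first because it is an SRF binding site, at which myocardin and the ternary complex factors act through SRF. Each line gives the stretch around it, 5′ to 3′ on 1 strand, with the positions of the CArG box in capitals, and the guide with the bases that lie in the box in capitals. The wild-type line was rebuilt from the donor by putting back the bases of the wild-type genotyping primer.
wild type: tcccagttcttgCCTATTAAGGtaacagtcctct
HDR sg: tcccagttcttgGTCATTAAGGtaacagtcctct
PE2 peg: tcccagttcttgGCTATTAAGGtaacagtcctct
guide RNA: uagaggacuguuaCCUUAAU
Counted from 1 at the 5′ base of the box, the HDR allele carries C1G, C2T and T3C and the PE2 allele carries C1G alone. Neither edited box still matches the CArG consensus, in which CC and GG enclose 6 A or T bases.

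The consensus was also searched on both strands of the 250 bases before each annotated start in the RefSeq promoter set (GRCm38.p6), where 8 of the 9 genes had an entry, in 13 promoters. *Myocd* had no entry, so its promoter was not searched. *Srf* and *Fhl2* were the members with a match. A match was present in 1.47% of all 32851 promoters, and it is a match of letters, not a measured binding site. The promoters of *Srf* and *Fhl2* are printed because these genes varied together between libraries (described further on), with the matches in capitals and the last base next to the start.
Srf, chr17:46556163-46556412, minus strand: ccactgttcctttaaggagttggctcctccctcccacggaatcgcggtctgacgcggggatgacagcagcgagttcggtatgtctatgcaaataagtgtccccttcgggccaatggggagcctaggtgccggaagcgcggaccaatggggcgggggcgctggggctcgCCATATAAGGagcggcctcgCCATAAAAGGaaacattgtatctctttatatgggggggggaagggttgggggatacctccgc
Fhl2, first promoter, chr1:43196762-43197011, minus strand: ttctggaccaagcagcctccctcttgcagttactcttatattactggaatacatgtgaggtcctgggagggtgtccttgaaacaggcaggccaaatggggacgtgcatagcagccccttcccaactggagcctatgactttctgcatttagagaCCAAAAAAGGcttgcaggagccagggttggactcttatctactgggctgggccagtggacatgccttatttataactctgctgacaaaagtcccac
Fhl2, second promoter, chr1:43163962-43164211, minus strand: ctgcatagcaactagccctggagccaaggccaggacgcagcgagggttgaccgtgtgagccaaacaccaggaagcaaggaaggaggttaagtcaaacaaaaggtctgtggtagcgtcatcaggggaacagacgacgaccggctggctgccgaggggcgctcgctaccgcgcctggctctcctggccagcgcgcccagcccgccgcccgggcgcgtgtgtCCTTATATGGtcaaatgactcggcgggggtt
The *Srf* promoter holds 2 matches, which begin 82 and 62 bases before the start. The match in *Fhl2* begins 96 bases before the first start and 31 bases before the second. The consensus MEF2 site, searched the same way, was present in 2.92% of all promoters and, among the members, in the first *Fhl2* promoter alone, where it did not overlap the CArG match.

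*Tspan2* was read first in every library as a check of the labels. In HDR its level was 112 to 265 CPM (each count relative to its library's TMM-adjusted total) in the wild type and 16.0 to 36.6 CPM in sg/sg. In PE2 it was 186 to 284 CPM in the wild type and 11.9 to 25.5 CPM in peg/peg. The groups did not overlap in either experiment, so the libraries matched their labelled genotypes. By edgeR's quasi-likelihood test (called where the adjusted p was under 0.05), *Tspan2* was the only gene called in HDR and in PE2, 1 of 16423 genes (0.00609%) in HDR and 1 of 16401 (0.0061%) in PE2, where its adjusted p of 0.0292 ran from 0.00524 to 0.224 as each library was left out. None of the 9 SRF-related genes was called in either experiment, and 0 of 9 in HDR and 1 of 9 in PE2, *Myocd*, had an unadjusted p under 0.05, against 1.98% and 4.3% of all genes tested (3.04% higher and 1.27% lower in peg/peg). The wild-type and mutant ranges of all 9 genes overlapped in both experiments, where the groups did not overlap for 0.317% of genes in HDR and 2.54% in PE2 (1.43% higher and 1.1% lower in peg/peg). DESeq2, which called 4 HDR genes (0.00933%) and 33 PE2 genes (0.189%), called 0 of the 9 as well.

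**Figure D1:**
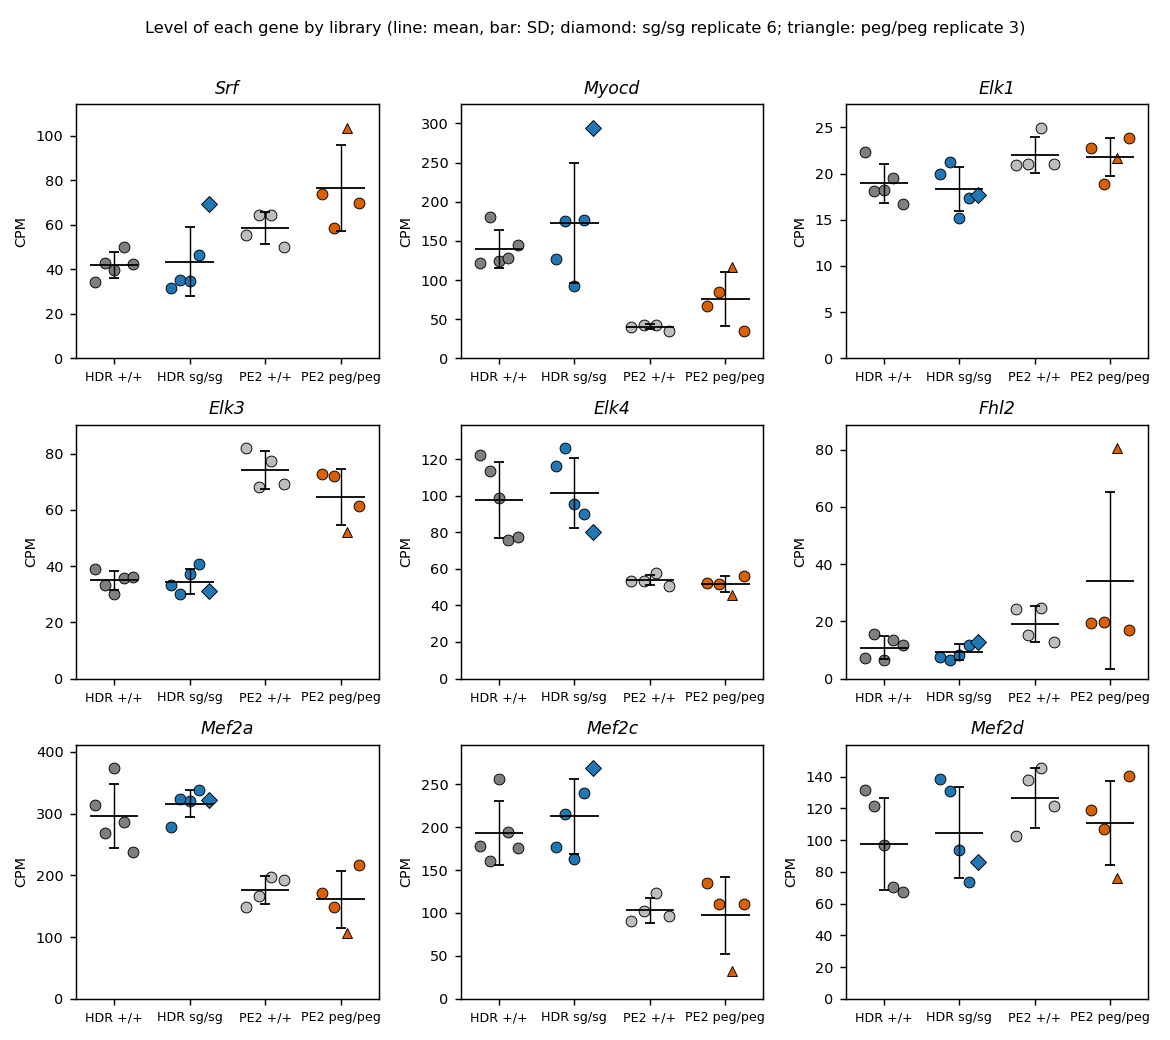
Level of each of the 9 genes in every library, in CPM on axes that start at 0, with the mean (line) and SD (bar) of each group of 5 (HDR) or 4 (PE2) libraries. In every panel the mutant and wild-type ranges of an experiment overlap. For *Myocd* in PE2, 3 peg/peg points lie above the wild-type points and 1 just below the lowest of them. The library of peg/peg replicate 3 (triangle) lies above the other PE2 libraries for *Srf*, *Myocd* and *Fhl2* and below them for *Elk3*, *Elk4*, *Mef2a*, *Mef2c* and *Mef2d*.

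*Srf* (GRCm38, chromosome 17, 46548329 to 46556175, minus strand) encodes the protein that binds the box. In HDR wild-type replicates 2 to 6 it was at 34.4, 43.0, 39.8, 50.3 and 42.2 CPM. In sg/sg replicates 2 to 6 it was at 31.7, 35.0, 35.0, 46.3 and 69.4 CPM. A single mutant, replicate 6, was above every wild type, and replicate 2 was below every wild type. The log2 fold change was 0.05 (SE 0.20, 95% interval -0.39 to 0.50, edgeR adjusted p = 1.00), and without sg/sg replicate 6 it was -0.17. In PE2 wild-type replicates 1 to 4 *Srf* was at 55.6, 64.6, 64.6 and 49.9 CPM. In peg/peg replicates 1 to 4 it was at 73.8, 58.6, 104 and 70.0 CPM. Replicates 1, 3 and 4 were above every wild type and replicate 2 was inside their range. The log2 fold change was 0.38 (SE 0.18, 95% interval -0.03 to 0.80, edgeR adjusted p = 0.861). Leaving out peg/peg replicate 3 gave 0.19 (SE 0.13), and leaving out replicate 2 gave 0.49 with an unadjusted p = 0.0223 by edgeR.

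*Myocd* (chromosome 11, 65176561 to 65269989, minus strand) encodes myocardin and had the largest fold change of the 9 in both experiments. In HDR wild-type replicates 2 to 6 it was at 122, 180, 124, 128 and 145 CPM. In sg/sg replicates 2 to 6 it was at 127, 176, 92.1, 177 and 295 CPM. The lowest and the highest of the 10 HDR libraries, replicates 4 and 6, were both sg/sg. Its log2 fold change was 0.31 (SE 0.26, 95% interval -0.26 to 0.88, edgeR adjusted p = 1.00), and without sg/sg replicate 6 it was 0.04. In PE2 the wild-type libraries were close together, at 40.5, 42.7, 42.9 and 35.3 CPM. The peg/peg libraries were spread over 66.5, 85.2, 117 and 35.2 CPM in replicates 1 to 4. Replicates 1, 2 and 3 were above every wild type and replicate 4 was just below the lowest wild type, at 35.2 against 35.3 CPM. For *Myocd* this gave a log2 fold change of 0.91 (SE 0.31, 95% interval 0.19 to 1.63, n = 4 against 4), with an unadjusted p = 0.0195 and an adjusted p = 0.861 by edgeR. Leaving out peg/peg replicate 3 gave 0.62, leaving out replicate 4 gave 1.13, and its edgeR adjusted p ran from 0.533 to 0.993 as each library was left out. DESeq2 gave an unadjusted p = 0.00744 and an adjusted p = 0.573.

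*Fhl2* (chromosome 1, 43123074 to 43196984, minus strand), the LIM-only cofactor, was the member at the lowest CPM in HDR. In HDR wild-type replicates 2 to 6 it was at 7.19, 15.5, 6.44, 13.4 and 11.6 CPM. In sg/sg replicates 2 to 6 it was at 7.42, 6.51, 8.09, 11.5 and 12.8 CPM, entirely inside the wild-type range. The log2 fold change was -0.22 (SE 0.27, 95% interval -0.82 to 0.37, edgeR adjusted p = 1.00). In PE2 wild-type replicates 1 to 4 it was at 24.2, 15.1, 24.6 and 12.6 CPM. In peg/peg replicates 1, 2 and 4 it was at 19.5, 19.8 and 16.8 CPM, inside that range, and in replicate 3 it was at 80.6 CPM. Its log2 fold change was 0.84 (SE 0.55, 95% interval -0.42 to 2.09, edgeR adjusted p = 0.861), and it was -0.04 (SE 0.25) without replicate 3.

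The ternary complex factors had log2 fold changes between -0.20 and 0.06. *Elk1* (chromosome X, 20933395 to 20950608) was at 15.2 to 22.3 CPM over the 10 HDR libraries and 18.9 to 24.98 CPM over the 8 PE2 libraries. Its log2 fold change was -0.05 (SE 0.12, 95% interval -0.31 to 0.21) in HDR and -0.01 (SE 0.11, 95% interval -0.26 to 0.23) in PE2. *Elk3* (chromosome 10, 93247414 to 93311135), which can also repress, was at 30.1 to 40.6 CPM in HDR and had a log2 fold change of -0.02 (SE 0.11). In PE2 wild-type replicates 1 to 4 *Elk3* was at 82.1, 68.0, 77.3 and 69.1 CPM and in peg/peg replicates 1 to 4 at 72.8, 72.2, 52.0 and 61.5 CPM. All 4 peg/peg values were below the wild-type mean and 2 were below the lowest wild type, and the log2 fold change of -0.20 (SE 0.13) had an edgeR adjusted p = 0.861. *Elk4* (chromosome 1, 132007607 to 132032612) had log2 fold changes of 0.06 (SE 0.17) in HDR and -0.06 (SE 0.09) in PE2, where its 8 libraries lay between 45.6 and 57.6 CPM.

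The MEF2 genes gave log2 fold changes between -0.20 and 0.14. *Mef2a* (chromosome 7, 67231163 to 67372858) was at 238 to 374 CPM in HDR wild type and 279 to 338 CPM in sg/sg, with a log2 fold change of 0.10 (SE 0.13). In PE2 it was at 149 to 197 CPM in the wild type and 107 to 216 CPM in peg/peg, where replicate 3 was the lowest and replicate 4 the highest of all 8 libraries, and its log2 fold change was -0.13 (SE 0.21). *Mef2c* (chromosome 13, 83504034 to 83667080), which is needed for heart and vessel development, was at 178, 160, 256, 194 and 175 CPM in HDR wild-type replicates 2 to 6 and 177, 216, 163, 239 and 269 CPM in sg/sg replicates 2 to 6. Its log2 fold change was 0.14 (SE 0.17, 95% interval -0.23 to 0.51). In PE2 wild-type replicates 1 to 4 it was at 90.5, 103, 123 and 96.1 CPM and in peg/peg replicates 1 to 4 at 135, 110, 32.8 and 111 CPM. The other 3 peg/peg libraries were above the wild-type mean of 103 CPM while replicate 3 was below every other library. The log2 fold change was -0.09 (SE 0.37), and 0.19 without replicate 3 (unadjusted p = 0.186 by edgeR).

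*Mef2d* (chromosome 3, 88142372 to 88172086) lies on the chromosome of the edit, 14.6 Mb from the start of *Tspan2*. It had log2 fold changes of 0.10 (SE 0.23, 95% interval -0.40 to 0.61) in HDR and -0.20 (SE 0.19, 95% interval -0.64 to 0.25) in PE2. In HDR it was at 131, 122, 96.9, 70.2 and 67.3 CPM in wild-type replicates 2 to 6 and at 138, 131, 93.9, 73.5 and 86.2 CPM in sg/sg replicates 2 to 6. The 4 libraries numbered 5 and 6, of both genotypes, were at 67.3 to 86.2 CPM and the other 6 at 93.9 to 138 CPM. *Elk4* divided in the same way, at 75.8 to 90.3 CPM in these 4 and 95.4 to 126 CPM in the others. *Xist*, the RNA of the inactive X chromosome, was at 0.761 to 1.82 CPM in the same 4 libraries and 1120 to 1578 CPM in the others. The HDR columns carry no sex, and the part of sex in these levels was not tested.

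In the Gencode M21 annotation of GRCm38, the exons of *Srf*, *Myocd*, *Fhl2* and *Mef2c* overlapped no other gene. *Elk3* shared exon bases with *Cdk17*, *Mef2a* 302 bases with *Lysmd4*, *Mef2d* 531 with *1700113A16Rik* and *Elk4* 84 with *Mfsd4a*, all on the opposite strand, and on the same strand *Elk1* shared 76 with *Uxt* and *Elk4* 104 with *Gm29103*. The strand setting of the counting is not given in the sources used here, so reads from these stretches cannot be assigned with certainty.

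**Figure D2:**
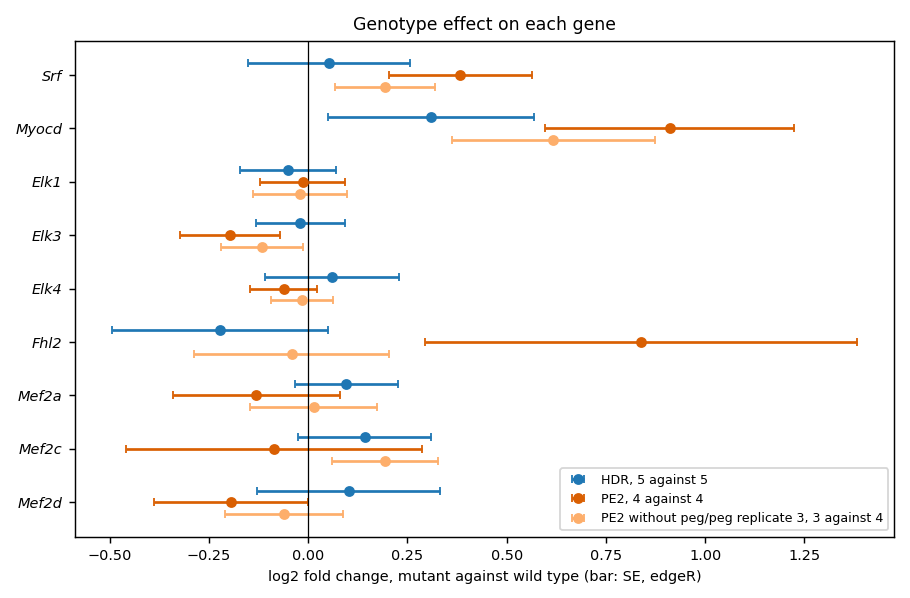
Log2 fold change of mutant against wild type for each of the 9 genes with its SE (bars) from edgeR, for HDR, for PE2 and for PE2 without peg/peg replicate 3. The *Fhl2* value goes from 0.84 to -0.04 and the *Mef2c* value from -0.09 to 0.19 when that library is left out, while *Myocd* goes from 0.91 to 0.62.

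Whether the difference between mutant and wild type was unlike in the 2 experiments was tested as an interaction over all 18 libraries. The experiments also differ in age, strain, depth and sex balance, so the test does not isolate the edits. None of the 9 genes was called, and 0 of the 18094 genes tested (0.0%) were called by edgeR, with 929 genes, 5.13%, at an unadjusted p under 0.05. Of the 9, 0 had an unadjusted p under 0.05. The largest difference, HDR minus PE2, was that of *Fhl2*, -1.04 on the log2 scale (SE 0.60, 95% interval -2.31 to 0.24, edgeR unadjusted p = 0.104), and it was -0.17 without peg/peg replicate 3. For *Myocd* the difference was -0.57 (SE 0.43, 95% interval -1.47 to 0.33) and for *Srf* -0.31 (SE 0.30, 95% interval -0.95 to 0.33). Without sg/sg replicate 6 the *Myocd* difference was -0.85 and the *Srf* difference -0.54, with edgeR unadjusted p-values of 0.0403 and 0.0387. The narrowest intervals were those of *Elk1* (-0.39 to 0.36) and *Elk3* (-0.15 to 0.54).

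The PE2 library of peg/peg replicate 3 stood apart in genes outside the SRF group too. *Des*, the muscle intermediate filament desmin, was at 5570 CPM in it and 92.0 to 111 CPM in the other 7 PE2 libraries. *Tcf21* and *Hand2*, transcription factors of mesenchymal and cardiac progenitors, were at 241 and 45.9 CPM against at most 4.19 and 6.64 CPM. The 10 skeletal muscle markers summed to 1195 CPM in it and 9.19 to 22.8 CPM in the others, with *Myod1* and *Myog* at 0 counts in all wild-type libraries. The 10 cardiac markers summed to 1043 CPM against 51.8 to 192 CPM, and all 10 had counts in each PE2 group. The 10 adipocyte markers summed to 283 CPM against 1851 to 6353 CPM, and the 10 endothelial markers to 822 CPM against 1572 to 3349 CPM, with none at 0 counts in either group. *Myh11*, the smooth muscle myosin heavy chain, was at 15924 CPM in it against 4726 to 10130 CPM, which is its highest PE2 value, while *Acta2*, smooth muscle actin, was at 14229 CPM against 13269 to 24747 CPM. In the same library *Fhl2* was 4.14 times, *Myocd* 2.73 times and *Srf* 1.61 times the median of the other 7 libraries, and *Mef2c* 0.297 times. In HDR the 10 macrophage markers all had negative log2 fold changes, 7 of them with an unadjusted p under 0.05 (1.63% of all genes tested were lower at that p), and summed to 279 to 773 CPM in wild type and 213 to 381 CPM in sg/sg. The 773 CPM was that of wild-type replicate 6 alone, and the next wild type was at 444 CPM. In PE2 all 10 had positive log2 fold changes, 0 of them with an unadjusted p under 0.05, with a median of 0.58 that was 0.06 without peg/peg replicate 3, where they summed to 920 CPM against 162 to 571 CPM in the other 7 libraries. The part of these other cell types in the values of the 9 genes was not tested, and the values without the library are those given with each gene.

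Of the genes that act on SRF, such as the myocardin-related coactivators, LIM proteins and KLF4, 15 of the 16 listed were tested in each experiment. None was called, and 0 in HDR and 1 in PE2 had an unadjusted p under 0.05, against 1.98% and 4.3% of all genes tested. That gene was *Klf4*, a repressor of contractile genes, at 50.1 ± 20.8 CPM (SD, n = 4) in PE2 wild type and 94.4 ± 28.3 CPM (SD, n = 4) in peg/peg, with overlapping ranges (log2 fold change 0.92, SE 0.33, edgeR adjusted p = 0.861). In HDR the most abundant, *Fhl1* and *Csrp1*, had log2 fold changes of 0.05 (SE 0.18) and -0.07 (SE 0.25). The median over the list was -0.02 in HDR and 0.06 in PE2, beside medians over all genes of 0.00 and 0.01.

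Of 12 regulators and relatives of MEF2, 10 were tested in HDR and 11 in PE2, and none was called. *Tcf21* and *Hand2* had an unadjusted p under 0.05 in PE2 (log2 fold changes of 4.64, SE 1.80, and 2.88, SE 1.14, edgeR adjusted p = 0.861 for each), in both cases with the highest level in peg/peg replicate 3. Of all genes tested, 4.3% in PE2 and 1.98% in HDR were under that p. *Hdac5* and *Cabin1*, which restrain MEF2, had log2 fold changes in HDR of 0.12 (SE 0.12) and 0.11 (SE 0.16). Among the ETS relatives and MAP kinases, 0 of 14 in HDR and 0 of 15 in PE2 reached an unadjusted p of 0.05.

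The target genes of SRF include those that need myocardin and those driven by the ternary complex factors. Of 16 contractile genes with CArG boxes, all were tested and none was called. An unadjusted p under 0.05 was found for 0 in HDR and 1 in PE2, against 1.98% and 4.3% of all genes tested. That gene was *Des*, with a log2 fold change that rested on peg/peg replicate 3, since the other 7 libraries lay within 92.0 to 111 CPM. The median log2 fold change of the 16 was 0.09 in HDR and 0.47 in PE2, and the PE2 median was 0.02 without peg/peg replicate 3. In HDR *Myh11* had a log2 fold change of 0.11 (SE 0.21) and *Acta2* of 0.18 (SE 0.28), and the median was -0.07 without sg/sg replicate 6, the library with the highest *Srf* and *Myocd*. In that library *Acta2* was at 15276 CPM, against 5030 to 10914 CPM in the other 9 HDR libraries. Its 10 adipocyte markers summed to 928 CPM, the lowest in HDR, and its endothelial markers to 1148 CPM, the lowest in sg/sg. In sg/sg replicate 4, with the lowest *Myocd*, these sums were 4069 and 2700 CPM, the highest in sg/sg. All 10 adipocyte markers had negative log2 fold changes in HDR (median -0.54) and 9 in PE2 (median -0.69). The part of cell make-up in these values was not tested. Of 10 cytoskeletal target genes, none was called or reached an unadjusted p of 0.05 in either experiment, with medians of 0.10 and 0.05. *Flna*, filamin A, had log2 fold changes of 0.20 (SE 0.19) in HDR and 0.03 (SE 0.30) in PE2.

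The 10 immediate early genes, which are induced within minutes of growth factor or stress signals, also had no call, but their PE2 values lay to one side. All 10 log2 fold changes were above 0 in PE2 and 8 were in HDR, and 6 of 10 in PE2 and 0 of 10 in HDR had an unadjusted p under 0.05, against 3.04% and 0.353% of all genes tested for higher values in the mutant. The median log2 fold change was 1.28 in PE2 and 0.32 in HDR. In HDR the 10 genes summed to 803 to 1292 CPM in the libraries numbered 5 and 6, of both genotypes. In the other HDR libraries they summed to 459 to 797 CPM. The part of this division in the HDR values was not tested on its own. Without peg/peg replicate 3 the PE2 median was 1.47 and 8 of 10 had an unadjusted p under 0.05. Of all 16668 genes tested in that fit 683 did, 365 of them higher in peg/peg. *Fosb* was at 2.65 to 10.3 CPM in PE2 wild type and 11.9 to 31.5 CPM in peg/peg, without overlap, with a log2 fold change of 1.81 (SE 0.48, edgeR adjusted p = 0.861). *Egr1* was at 34.2 to 104 CPM in wild type and 116 to 184 CPM in peg/peg, also without overlap, with a log2 fold change of 1.21 (SE 0.34, edgeR adjusted p = 0.861). Higher values without overlap were found for 1.43% of all PE2 genes. *Nr4a1* had a log2 fold change of 1.88 (SE 0.53) and *Ier2* of 0.47 (SE 0.15), each with overlapping ranges. In HDR *Egr1* had a log2 fold change of 0.49 (SE 0.24), *Nr4a1* of -0.08 (SE 0.33) and the most abundant members of the list, *Ccn1* and *Mcl1*, of 0.15 (SE 0.55) and 0.09 (SE 0.14).

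**Figure D3:**
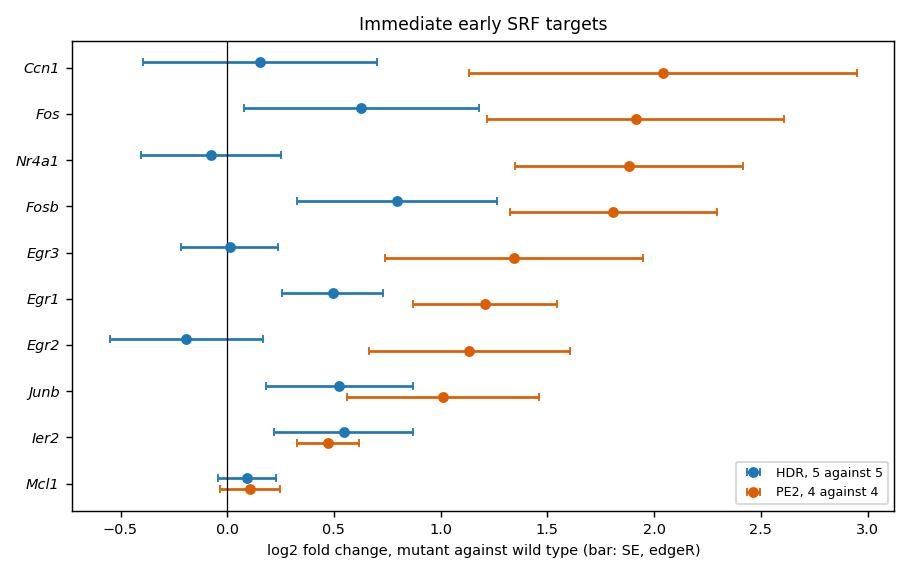
Log2 fold change of mutant against wild type for each of the 10 immediate early SRF targets with its SE (bars) from edgeR, ordered by the PE2 value. All 10 PE2 points lie above 0, from 0.11 for *Mcl1* to 2.04 for *Ccn1*, and none of them was called at an adjusted p under 0.05.

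Levels were compared between genes per kilobase of exon, where the order differed between the experiments. In HDR wild type *Myocd* was first, at 21.8 ± 3.78 CPM per kilobase (SD, n = 5), followed by *Mef2a*, *Mef2d*, *Elk4*, *Srf* and *Mef2c* down to 12.3 ± 2.39, each overlapping the next in range. *Elk3* at 7.67 ± 0.75 was below *Mef2c* without overlap, and *Fhl2* and *Elk1* closed the order at 5.71 ± 2.06 and 3.52 ± 0.39 CPM per kilobase (SD, n = 5). The sg/sg group gave the same order of the 9 genes. In PE2 wild type *Mef2d* and *Srf* were first, at 21.2 ± 3.18 and 20.3 ± 2.49 CPM per kilobase (SD, n = 4), and *Myocd* was eighth, at 6.28 ± 0.55, above only *Elk1* at 4.09 ± 0.37. In peg/peg *Srf* was first at 26.5 ± 6.67 and *Myocd* was the fifth at 11.8 ± 5.31 CPM per kilobase (SD, n = 4).

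Read as CPM side by side, *Elk4*, *Mef2a* and *Mef2c* were higher in all 10 HDR libraries than in any of the 8 PE2 libraries and *Elk3* was lower. *Mef2a* ran from 238 to 374 CPM in HDR and from 107 to 216 CPM in PE2, and *Elk3* from 30.1 to 40.6 and from 52.0 to 82.1 CPM. *Myocd* had a median of 136 CPM in HDR and 42.8 CPM in PE2, with ranges that overlapped through peg/peg replicate 3 alone, at 117 CPM, since the other 7 PE2 libraries were at or below 85.2 CPM and the lowest HDR library at 92.1 CPM. The 2 tables were scaled separately, so these are values side by side and not a test.

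**Figure D4:**
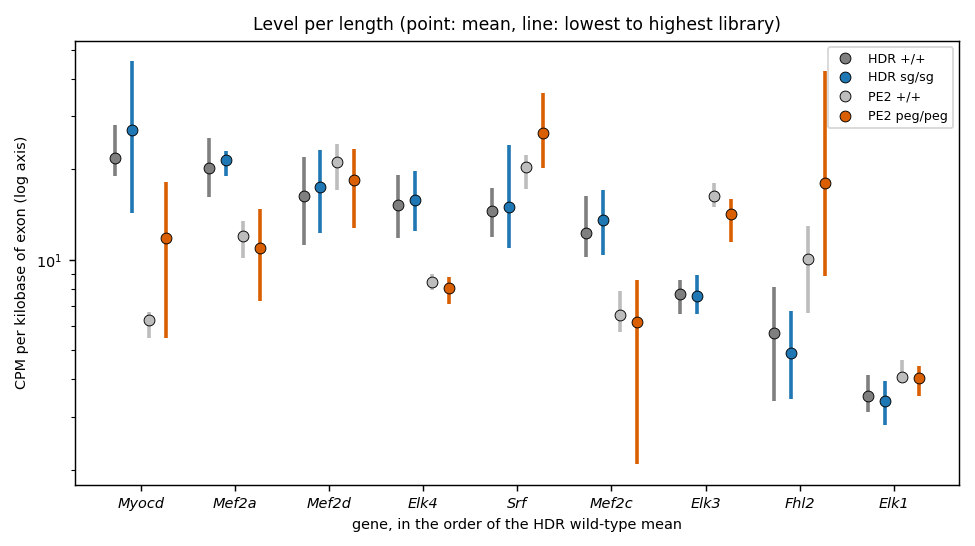
Level of each gene in CPM per kilobase of exon on a log axis, with the mean (point) and the lowest to highest library (line) of each of the 4 groups. *Myocd* is the highest of the 9 in the HDR groups and next to lowest in PE2 wild type, and *Elk1* is the lowest in all 4 groups.

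Within groups, the members did not vary alike. The spread between libraries of one group was taken as the SD of log2 CPM after 1 CPM was added to each value. It was largest for *Myocd* and *Fhl2* in HDR, at 0.47 and 0.45, above those of 88.7% and 86.8% of the genes tested. In PE2 it was largest for *Fhl2* (0.80), *Mef2c* (0.66) and *Myocd* (0.52), and each of these is set in part by peg/peg replicate 3. *Elk1* was among the steadiest, with SDs of 0.16 and 0.13, below those of most genes (medians over all genes 0.25 and 0.23).

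To see which genes followed *Srf* from animal to animal, the deviation of each gene's log2 CPM from the mean of its own group was correlated over the 18 libraries, and p-values came from a two-sided permutation test (100000 resamples within groups) adjusted over 14760 genes. With *Srf*, 1939 genes (13.1%) passed an adjusted p of 0.05, 1510 with a positive and 429 with a negative correlation. The 5 closest were ribosomal protein genes and a zinc finger gene: *Rpl37a* (Pearson's r = 0.97), *Rpl12* (r = 0.96), *Rpl35* (r = 0.95), *Rps21* (r = 0.95) and *Zmat2* (r = 0.95), each with a permutation p = 1e-05, the smallest that 100000 resamples can give, and an adjusted p = 0.00289. Spearman's rho for *Rpl37a* was 0.93 (permutation p = 2e-05, adjusted p = 0.00798), and r was 0.98 within HDR, 0.96 within PE2 and 0.94 without the 2 libraries farthest from the *Srf* median, sg/sg replicate 6 and peg/peg replicate 3. Of 78 genes named as cytosolic ribosomal proteins (*Rpl* and *Rps*), a set looked at after the first 5 were seen, 71 passed the threshold with a positive r, 38 were among the first 100, and their median r was 0.88, beside 0.08 over all genes. All of these values share the libraries and their depth and composition, and the part of library composition or RNA quality in them was not tested. Only group means were removed, so differences between the HDR libraries numbered 5 and 6 and the others remain. *Srf* was at 42.2 to 69.4 CPM in these 4 libraries and 31.7 to 43.0 CPM in the other 6. The part of this division in the correlations was not tested.

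Among the members, *Fhl2* was the closest to *Srf* (r = 0.71, permutation p = 0.00124, adjusted p = 0.0195). Its rho was 0.69 (permutation p = 0.00215, adjusted p = 0.0352), r was 0.72 within HDR and 0.78 within PE2, and 0.60 without the 2 farthest libraries. In rank it was number 1440 of 14760 genes, so 9.75% of genes were closer. *Myocd* had r = 0.63 with *Srf* (permutation p = 0.0401, adjusted p = 0.147), with 0.77 within HDR and 0.46 within PE2. This r was 0.17 without the 2 libraries farthest from the *Srf* median and 0.55 without the 2 farthest from the *Myocd* median. *Elk4* had r = -0.52 (adjusted permutation p = 0.137) and *Mef2d* r = -0.45 (adjusted permutation p = 0.254), and the other 4 were between -0.28 and 0.05. With *Mef2c*, r was 0.58 within HDR and -0.56 within PE2, and over all libraries it went from -0.10 to 0.63 when peg/peg replicate 3 was left out.

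**Figure D5:**
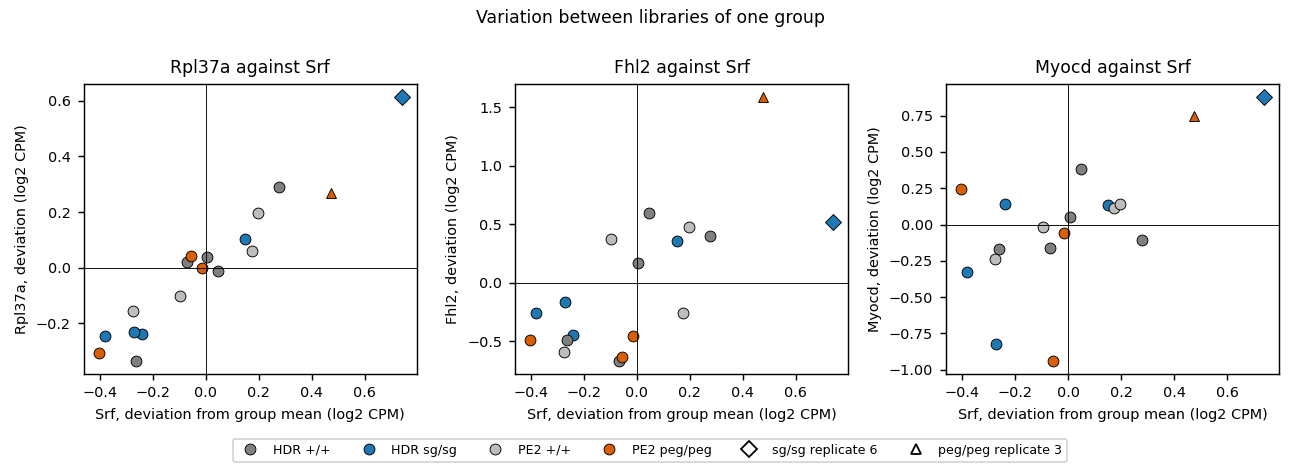
Deviation of *Rpl37a*, *Fhl2* and *Myocd* from the mean of their group against that of *Srf*, in log2 CPM, with a point for each of the 18 libraries. The *Rpl37a* points follow a narrow diagonal (r = 0.97), the *Fhl2* points a wider one (r = 0.71), and the upper right of each panel is held by sg/sg replicate 6 (diamond) and peg/peg replicate 3 (triangle).

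With *Myocd* as the reference, 0 genes passed an adjusted permutation p of 0.05 and 1581 had an unadjusted p under 0.05. The 5 largest correlations were those of *Stat5a* (r = -0.89), *Fem1c* (r = 0.88), *Zfp664* (r = 0.87), *Trim36* (r = 0.87) and *Yap1* (r = 0.86), with adjusted permutation p-values of 0.419 for *Stat5a* and 0.26 for the other 4. Without the 2 libraries farthest from the *Myocd* median, r was -0.75, 0.75, 0.78, 0.79 and 0.84 for these genes in that order. For *Yap1*, a coactivator of the Hippo pathway, r was 0.87 within HDR and 0.86 within PE2, and rho was 0.77 (permutation p = 0.00084, adjusted p = 0.72). The 5 genes were picked by their r in these same libraries, so values from parts of them are no separate support. Among the members *Fhl2* and *Srf* were again the closest to *Myocd* (r = 0.64 and 0.63, adjusted permutation p = 0.419 and 0.452), and *Mef2a* had the largest negative value (r = -0.51, adjusted permutation p = 0.501), which was -0.85 within PE2 and -0.05 within HDR.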

How the data were processed

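RNA from 18 mouse aortae was sequenced as polyadenylated libraries. After trimming by fastp, the authors mapped reads with STAR 2.7.0f to GRCm38, counted them per gene with featureCounts (Subread 1.6.4, Gencode M22) and compared genotypes with DESeq2 1.22.1. The deposited tables hold raw counts per gene, which were used here. A second deposited pair of tables holds normalised signal, each count divided by the DESeq2 size factor the authors gave its library, and served only as a check of the counts. The members and gene lists were chosen with earlier results of these data known. Counts were scaled by TMM, filtered with filterByExpr and tested with edgeR 4.0.16 (R 4.3.3) quasi-likelihood tests, with Benjamini-Hochberg adjustment over all genes tested, within each experiment and as an interaction over all 18 libraries. p-values measure the spread between aortae of separate mice. DESeq2 1.42.0, limma-voom (limma 3.58.1), other filters and scalings, a replicate block, sex and leaving out each library were alternatives. In simulated data with 200 genes above a minimum level changed at once, the edgeR test recovered 80% (HDR) and 41% (PE2) of those changed by 1 on the log2 scale. With fewer genes changed the adjusted threshold is stricter, so these shares are not the power for any of the members. Likeness used log2 CPM with a prior count of 2. Outside the members and *Tspan2*, the genes named were those called, up to 4 of each list with the smallest unadjusted p under 0.05 in an experiment (otherwise the 2 most abundant), and the 5 largest correlations. A gene that this rule names is not reported here. Genes shown for peg/peg replicate 3, *Xist* and the second experiment's value of a named gene were added after values were seen. The same-numbered PE2 wild-type and peg/peg libraries did not deviate together (correlations between -0.29 and 0.02), so the numbers do not pair them. HDR numbers come from column names alone.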

Additional observations from a re-analysis of the deposited data

Results flagged for a closer look

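In groups of 4 or 5 libraries, 8 of the 92 groups examined (9 genes, *Tspan2* and 13 gene lists) held a library whose gap to its neighbour passed Dixon's 95% limit, where chance gives about 1 in 20. For the members these were *Elk1* at 24.98 CPM in PE2 wild-type replicate 3 and *Fhl2* at 80.6 CPM in peg/peg replicate 3. The same peg/peg library had the sum of the MEF2 regulators and relatives at 694 CPM, of the skeletal muscle markers at 1195 CPM and of the cardiac markers at 1043 CPM. Within the MEF2 sum, *Tcf21* held 241 CPM and *Hand2* 45.9 CPM. In the other 7 PE2 libraries these genes were at most at 4.19 and 6.64 CPM, so the sum does not show a joint rise of the list. In the other groups, the skeletal muscle markers summed to 159 CPM in HDR wild-type replicate 3, the cardiac markers to 137 CPM in PE2 wild-type replicate 3, and the fibroblast markers to 6221 CPM, the lowest of their group, in sg/sg replicate 4.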

How the results depend on the processing

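None of the 9 genes was called under any alternative run. Over all genes, the 1 HDR call became 4 with DESeq2 and 4 without a filter. The 1 PE2 call became 33 with DESeq2, 0 with sex as a covariate, 0 in female libraries alone and 0 to 2 as each library was left out, and the 0 calls of the interaction became 0 to 4. With the replicate block the PE2 count was 0 and the *Myocd* log2 fold change 0.79, but the numbers do not pair these libraries. In HDR a replicate block on the column numbers was chosen after seeing the data. Same-numbered libraries correlated between -0.20 and 0.57, over 0.1 in 4 of 5 pairs, and 3 of 10 libraries correlated best with their own number, so these numbers were not taken as pairs either. This block left the HDR count at 1 and gave -0.000192 for *Srf* and 0.22 for *Myocd*. It lowered the SE of *Elk4* from 0.17 to 0.0828 and of *Mef2d* from 0.23 to 0.085. It brought 3 of the 10 immediate early genes under an unadjusted p of 0.05 in place of 0. Of all 16423 genes tested, 413 were under that p with this block, 140 of them higher in sg/sg, in place of 325 and 58. Directions turned as each library was left out, and the cause was not tested. In HDR the log2 fold change ran from -0.17 to 0.14 for *Srf*, -0.11 to 0.0133 for *Elk1*, -0.0884 to 0.0232 for *Elk3*, -0.0319 to 0.15 for *Elk4* and -0.0174 to 0.23 for *Mef2d*, and the median of the contractile CArG genes from -0.0717 to 0.20. In PE2 it ran from -0.0752 to 0.0456 for *Elk1*, -0.042 to 1.05 for *Fhl2*, -0.32 to 0.0135 for *Mef2a* and -0.29 to 0.19 for *Mef2c*. The interaction ran from -0.10 to 0.0525 for *Elk1* and -0.049 to 0.46 for *Mef2c*. Correlations with *Srf* ran from -0.13 to 0.18 for *Elk1* (-0.00646 with DESeq2 size factors), -0.23 to 0.18 for *Mef2a* and -0.34 to 0.63 for *Mef2c*, and those with *Myocd* from -0.37 to 0.16 for *Elk1* and -0.39 to 0.44 for *Mef2c*. Of 340 single-gene values within an experiment, 311 kept direction and side of the threshold, 19 turned and 10, all of *Tspan2* in PE2, lost the call.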
